A study of Rattus norvegicus with 18 samples.

Results

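The heat shock and folding chaperones described here are the 74 genes of the array, of 11018 with a gene symbol, whose symbol begins with Hspa, Hspb, Hspd, Hspe, Hsph or Hsp and a digit, with Dnaj, with Bag, Pdia or Cct and a digit, or with Sec61. They fell into 11 classes by role: 8 HSP70 and HSP110 proteins, 1 cytosolic HSP90, 7 small heat shock proteins, 5 BAG cochaperones, 7 mitochondrial chaperones, 6 chaperones of the lumen of the endoplasmic reticulum (ER), 4 protein disulphide isomerases, 6 subunits of the CCT chaperonin, 3 SEC61 translocon proteins, 25 further J proteins and 2 HSP-binding proteins. Members were found by symbol and not by their values. A level is given throughout as log2 expression of 1 probe set per gene, so a difference of 1 is a 2-fold change. Levels were compared between groups of arrays and not between genes. Differences are log2 differences, and the value after ± is the standard error (SE) of the fit.

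Chaperones bind unfolded proteins and let them fold, refold or pass on to degradation. HSP70 proteins do so in cycles of ATP hydrolysis, J proteins (the Dnaj genes) deliver the client and start the cycle, and nucleotide exchange factors such as the HSP110 and BAG proteins end it. When unfolded protein builds up in the cytosol, the transcription factor HSF1 is known to bind heat shock elements in the promoters of Hspa1b, Dnajb1, Hsph1, Hspb1 and Bag3. The ER has a separate set, led by the HSP70 BiP (Hspa5) and the HSP90 GRP94 (Hsp90b1), which the unfolded protein response controls, and the mitochondrion has another, led by mortalin (Hspa9) and the HSP60 and HSP10 chaperonin. CCT is a ring-shaped cytosolic chaperonin that folds actin and tubulin, and SEC61 is the channel through which new proteins enter the ER.

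The samples were rat endothelial cells, isolated by enzymatic digestion, a density gradient and magnetic sorting, so that the fresh groups as well as the cultured ones had passed through isolation. LMEC_0h are freshly isolated lung microvascular endothelial cells, which line continuous capillaries (5 arrays). LSEC_0h are freshly isolated liver sinusoidal endothelial cells, which line the fenestrated capillaries of the liver (5 arrays). LSEC_2h and LSEC_42h are liver sinusoidal cells kept on collagen-coated dishes for 2 h and 42 h (4 arrays each). The labels give no strain, sex, age or animal, and do not say that arrays of a group came from separate isolations, so each p-value is relative to a spread between arrays that may be technical. Precision is limited by the 4 or 5 arrays of a group. Values by array run in the order of the array numbers, which are 18 to 22 for LMEC_0h, 13 to 17 for LSEC_0h, 4 to 7 for LSEC_2h, and 1, 2, 3 and 12 for LSEC_42h.

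Array medians lay between 7.095 and 7.19, and the 75th percentile lay between 8.01 and 8.09 on the 2 h arrays and between 8.19 and 8.32 on the others. Probe sets for bacterial poly-A transcripts, a control that can be added to RNA before labelling, averaged 7.62 to 8.37 on the 2 h arrays. They averaged 7.68 to 7.86 on the 42 h arrays and 5.66 to 5.74 on the fresh ones. Their means of 5.67 in LMEC_0h and 5.73 in LSEC_0h lay near those of the Trpn control probe sets, 5.61 and 5.67. The poly-A transcripts were therefore taken as absent from the fresh samples. On the fresh arrays the highest of the poly-A probe sets averaged 6.26, and a group mean at or below 6.26 is called background here. Of the 74 members, 65 were above it in every group, 9 were at background in 1 or more groups, and 3 of those (Hspa4l, Dnajb7 and Pdia2) were at background in all of them. Actb, whose 3′ minus 5′ difference is a measure of RNA integrity, had a difference of 1.63 to 1.69 on the 2 h arrays and 1.81 to 1.89 on the 42 h arrays, whereas the fresh arrays had 0.91 to 1.34. The same difference of Gapdh, 0.29 to 0.41 at 2 h and 0.31 to 0.39 at 42 h, did not go above the range of the fresh arrays, 0.34 to 0.74 in LMEC_0h and 0.29 to 0.84 in LSEC_0h. Culture and these technical differences cannot be told apart.

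All 12 measured endothelial markers, such as Cdh5, were above background in every group, with array means of 10.52 to 10.89 in LMEC_0h and, in the liver cells, 10.93 to 11.13 at 0 h, 9.97 to 10.24 at 2 h and 9.85 to 10.49 at 42 h. Markers of other cells were present too. The 15 hepatocyte markers averaged 6.59 to 6.74 in LMEC_0h, with 9 at background, and 8.29 to 9.84 at 0 h, 6.95 to 10.42 at 2 h and 6.27 to 6.45 at 42 h in the liver cells. The 8 macrophage markers averaged 6.78 to 7.98 in LMEC_0h and 8.27 to 11.03, 6.79 to 7.42 and 6.41 to 6.68 at 0 h, 2 h and 42 h. The 9 lung epithelial markers averaged 9.88 to 11.37 in LMEC_0h, and 6.24 to 6.36, 6.46 to 6.53 and 6.17 to 6.23 in LSEC at these times, with 7 of them at background in LSEC_0h. The 14 T, NK and B cell markers averaged 6.5 to 7.47 in LMEC_0h, and 6.52 to 6.68, 7.27 to 7.73 and 6.26 to 6.29 at 0 h, 2 h and 42 h. The 11 stellate and mesenchymal markers averaged 8.12 to 9.06 in LMEC_0h, and 6.39 to 6.94, 7.02 to 8.09 and 6.15 to 6.57 in the same order of times. These lists move with the groups, their part in the chaperone results was not tested, and fewer cells of a type and less RNA per cell cannot be told apart.

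The chaperones moved in both directions in every comparison. After 2 h, 33 of the 74 members rose and 21 fell against LSEC_0h at an adjusted p under 0.05 (limma with Benjamini-Hochberg adjustment over all 11018 genes, two-sided), where 41.4% of all genes tested rose and 32.7% fell. After 42 h, 32 rose and 19 fell against LSEC_0h, where 29.7% of all genes rose and 20.8% fell. Between the culture times, 29 were higher and 26 lower in LSEC_42h than in LSEC_2h, beside 33.1% and 38.9% of all genes. Between the organs, 18 were higher and 11 lower in LMEC_0h than in LSEC_0h, beside 19.8% and 27.7%. Without members at background in both groups compared, 30 of 71 rose and 21 fell at 2 h, and 30 of 68 rose and 19 fell at 42 h. Left out at 2 h were the rises of Hspa4l, Dnajb7 and Pdia2. On the same terms 29 of 71 were higher and 24 lower between the culture times, and 18 of 69 higher and 10 lower between the organs. The 3 comparisons within liver share arrays, so their counts are not independent.

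As shares, 44.6% of the members rose and 28.4% fell at 2 h, and 43.2% rose and 25.7% fell at 42 h. Against LSEC_2h, 39.2% were higher and 35.1% lower at 42 h, and in lung cells 24.3% were higher and 14.9% lower than in liver cells. Of the 4 shares that were higher, that of 42 h against LSEC_0h lay furthest above the share of all genes, and that of 2 h lay near it. The arrays of the groups did not overlap for 22 members between LMEC_0h and LSEC_0h (38.7% of all genes), 42 between LSEC_2h and LSEC_0h (66.3%), 46 between LSEC_42h and LSEC_0h (48.7%) and 52 between LSEC_42h and LSEC_2h (64.4%). The median log2 difference of the members was -0.01 for LMEC_0h against LSEC_0h (all genes -0.04) and 0.14 at 2 h against 0 h (all genes 0.08; members 0.13 with those at background taken at their bound). It was 0.09 at 42 h against 0 h (all genes 0.05) and 0.03 at 42 h against 2 h (all genes -0.08). Changes of 2-fold or more numbered 4 up and 3 down in LMEC_0h against LSEC_0h, 7 up and 4 down at 2 h, 10 up and 4 down at 42 h, and 10 up and 10 down between 42 h and 2 h. Among all 11018 genes they numbered, up and down in the same order, 650 and 438, 627 and 800, 454 and 594, and 969 and 618. Counts by class given below are to be read beside the shares of all genes for the same comparison.

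**Figure D1:**
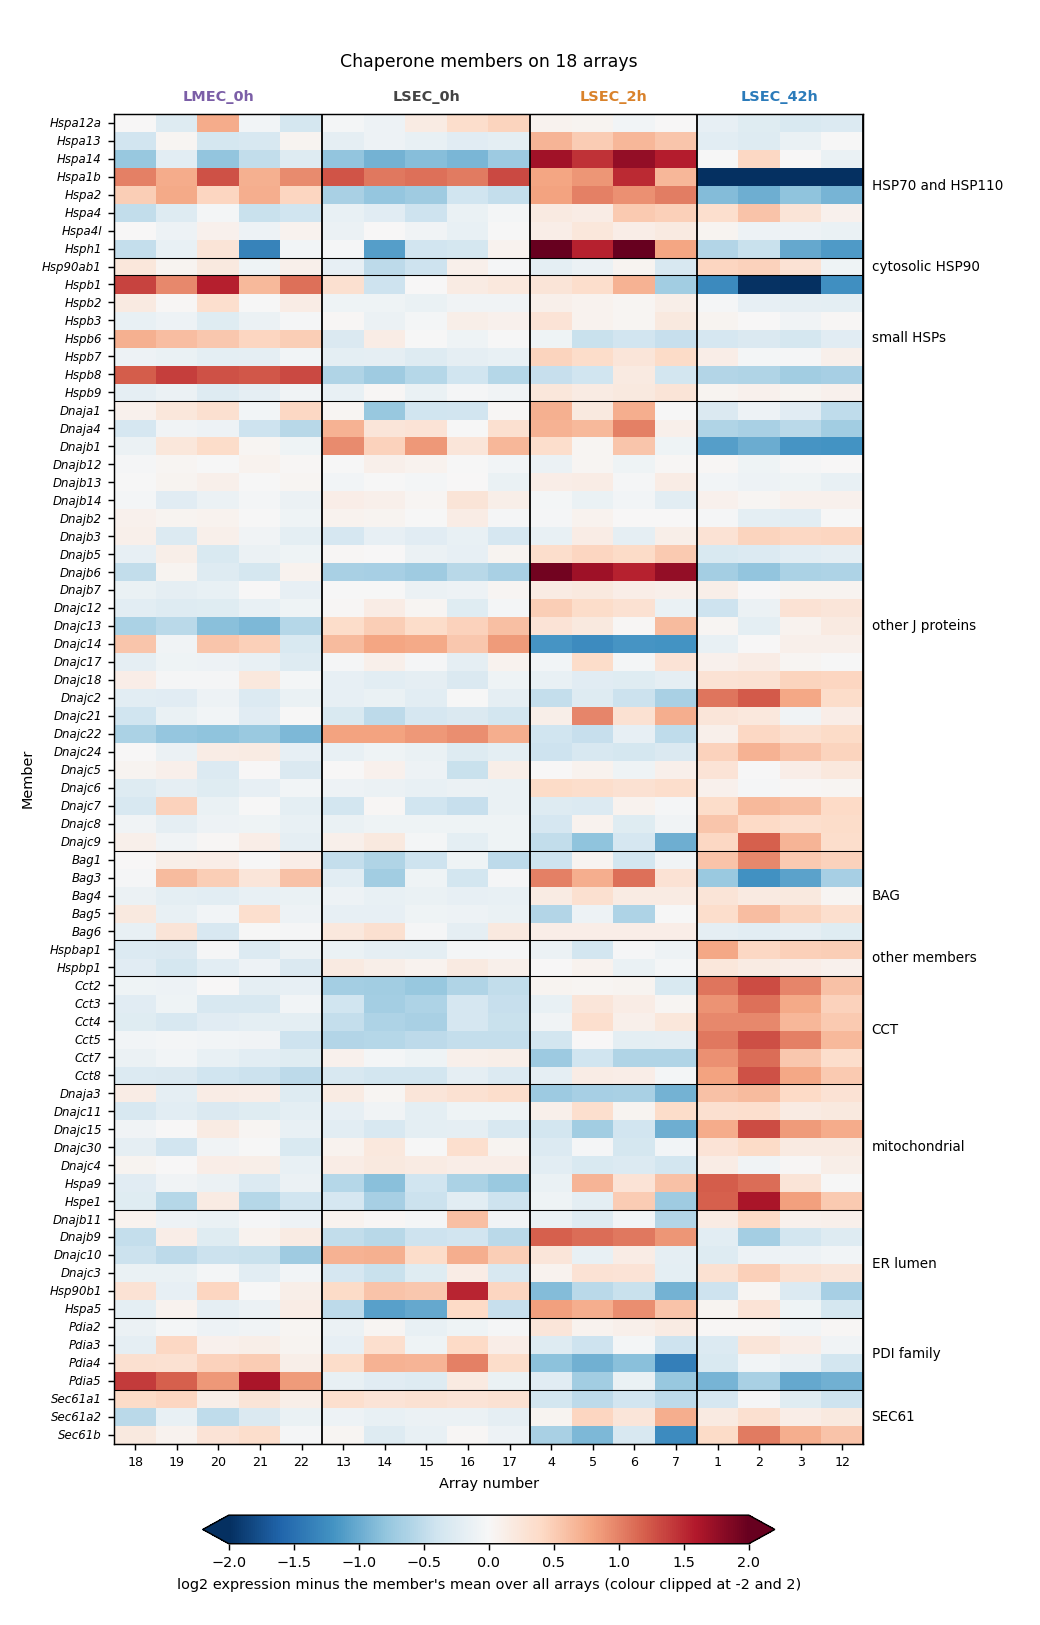
Level of each of the 74 members on each array, as log2 expression minus the member's mean over all arrays (colour, clipped at -2 and 2), with arrays in columns by group and members in rows by class. Hspa1b, Hspb1 and Dnajb1 are low on the 42 h arrays, Hsph1, Hspa14 and Dnajb6 are high on the 2 h arrays, and the CCT subunits are high on the 42 h arrays.

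**Figure D2:**
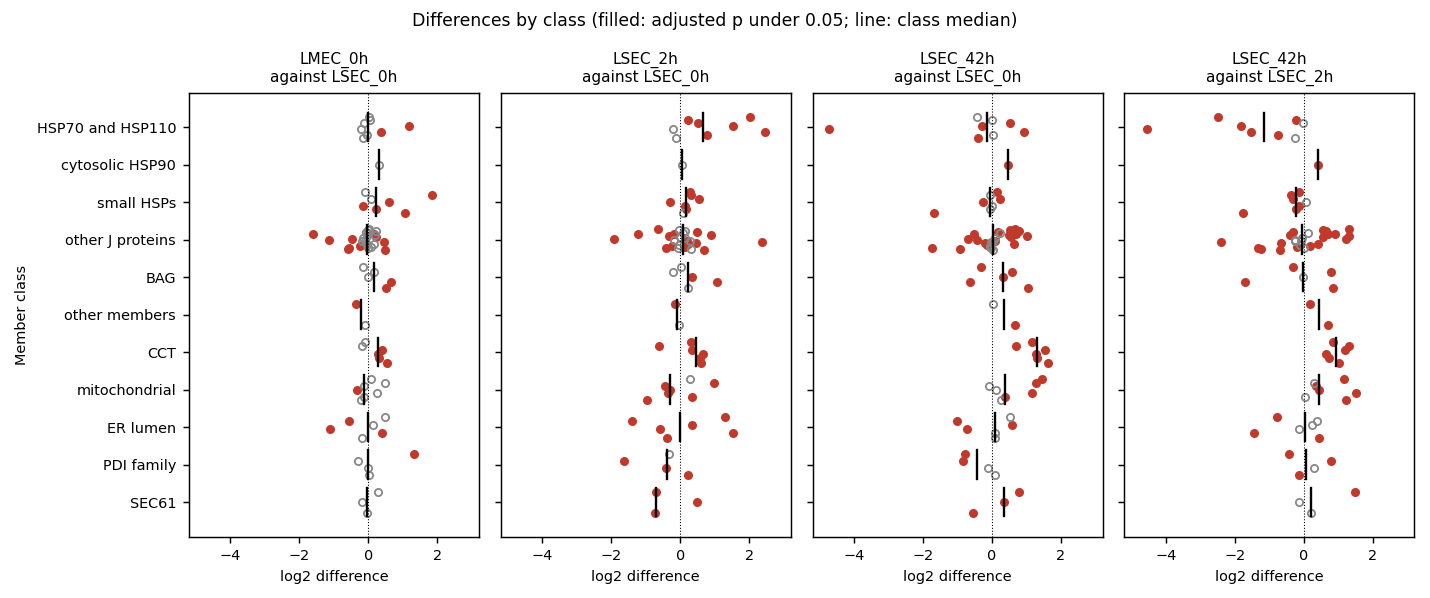
Log2 differences of the members (points, filled where the adjusted p is under 0.05) by class in the 4 comparisons, with a line at each class median. At 42 h against 2 h the 8 HSP70 and HSP110 members have a median of -1.15 and the 6 CCT subunits a median of 0.92.

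In the HSP70 and HSP110 class 6 of the 8 rose at 2 h against LSEC_0h and none fell (median 0.65), and 6 of the 8 were lower at 42 h than at 2 h and none higher (median -1.15). By 42 h, 2 had risen and 3 fallen against LSEC_0h (median -0.14; -0.07 with a member at background taken at its bound). The widest change of any member was in Hspa1b, the stress-inducible cytosolic HSP70. Hspa1b was at 12.33, 12.05, 12.59, 12.03 and 12.26 in LMEC_0h, and in LSEC at 12.58, 12.38, 12.43, 12.36 and 12.64 at 0 h, 12.11, 12.21, 12.81 and 11.99 at 2 h and 8.93, 7.49, 7.42 and 7.13 at 42 h. Each of the 4 arrays at 42 h lay far below every array of the other groups, and array 1 was higher than its 3 companions. The gene fell 26.6-fold at 42 h against LSEC_0h (log2 difference -4.74 ± 0.27, adjusted p = 3.08e-10) and 23.2-fold against LSEC_2h (log2 difference -4.54 ± 0.28, adjusted p = 1.0e-09). At 2 h it had not passed the test (log2 difference -0.20 ± 0.27, adjusted p = 0.511). The LMEC_0h arrays overlapped those of LSEC_0h (difference -0.23, adjusted p = 0.489). Its coding sequence is nearly identical to that of Hspa1a, which was not analysed here, so the probe set may have read both.

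Hsph1 is an HSP110 that exchanges the nucleotide of HSP70. It was at 9.13, 9.46, 9.86, 8.28 and 9.55 in LMEC_0h, and in LSEC at 9.58, 8.51, 9.23, 9.26 and 9.68 at 0 h, 11.59, 11.15, 12.02 and 10.39 at 2 h and 9.02, 9.16, 8.58 and 8.47 at 42 h. All 2 h arrays were above all others of liver, and the 0 h and 42 h arrays overlapped. Hsph1 rose 4.10-fold at 2 h (log2 difference 2.04 ± 0.33, adjusted p = 2.91e-05), was 5.58-fold lower at 42 h than at 2 h (log2 difference -2.48 ± 0.35, adjusted p = 7.67e-06), and did not pass at 42 h against 0 h (difference -0.44, adjusted p = 0.283). The LMEC_0h arrays spanned the range of LSEC_0h (difference 0.01, adjusted p = 0.989).

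Hspa14 is a ribosome-associated HSP70-like protein that works with Dnajc2 on nascent chains. It was at 7.85, 8.39, 7.81, 8.10 and 8.35 in LMEC_0h, and in LSEC at 7.80, 7.65, 7.74, 7.68 and 7.87 at 0 h, 10.28, 10.04, 10.35 and 10.17 at 2 h and 8.59, 9.01, 8.61 and 8.46 at 42 h. No arrays of these 3 groups overlapped, and the 42 h arrays lay in between. The rise was 5.51-fold at 2 h (log2 difference 2.46 ± 0.13, adjusted p = 1.14e-10) and 1.89-fold at 42 h (log2 difference 0.92 ± 0.13, adjusted p = 1.34e-05), and the level at 42 h was 2.92-fold below that at 2 h (log2 difference -1.55 ± 0.14, adjusted p = 3.73e-08). LMEC_0h overlapped LSEC_0h, with a mean 1.28-fold higher (log2 difference 0.35 ± 0.12, adjusted p = 0.0241). That call did not pass without LSEC_0h array 14 or 16, or without LMEC_0h array 19 or 22 (adjusted p 0.051 to 0.073), nor without LMEC_0h arrays 19 and 22 together.

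Hspa2, an HSP70 best known from the testis, was at 7.49, 7.77, 7.43, 7.72 and 7.43 in LMEC_0h, and in LSEC at 6.35, 6.22, 6.29, 6.60 and 6.53 at 0 h, 7.81, 8.0, 7.91 and 8.03 at 2 h and 6.13, 6.02, 6.20 and 6.07 at 42 h, where it was at background. The 3 groups did not overlap. It rose 2.91-fold at 2 h (log2 difference 1.54 ± 0.09, adjusted p = 2.74e-10), was at least 3.21-fold lower at 42 h than at 2 h (log2 difference -1.83 ± 0.09, adjusted p = 9.41e-11) and at least 1.10-fold lower at 42 h than at 0 h (log2 difference -0.29 ± 0.09, adjusted p = 0.0117). All LMEC_0h arrays were above those of LSEC_0h, 2.25-fold in the mean (log2 difference 1.17 ± 0.08, adjusted p = 2.41e-09). Of the remaining HSP70 and HSP110 members, Hspa13 of the ER and Hspa4, another HSP110, rose at 2 h by 0.77 and 0.53. Hspa4 had a difference of 0.51 from LSEC_0h at 42 h, whereas Hspa13 had one of 0.01, which did not pass. Hspa12a, an atypical HSP70, fell by 0.41 at 42 h against LSEC_0h, a call at the threshold (adjusted p = 0.0482) that did not pass when any of 13 arrays was dropped in turn (highest adjusted p 0.11). Hspa4l, 1 of the 6 counted at 2 h, was at background, and both of its calls there were lost after quantile normalization (adjusted p = 0.28 against LSEC_0h and 0.16 for 42 h against 2 h).

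The cytosolic HSP90 measured here, Hsp90ab1, is the constitutive form. Hsp90ab1 was at 12.39, 12.22, 12.36, 12.09 and 12.26 in LMEC_0h, and in LSEC at 12.004, 11.63, 11.75, 12.26 and 12.15 at 0 h, 11.97, 12.05, 12.22 and 11.85 at 2 h and 12.59, 12.63, 12.45 and 12.07 at 42 h. It rose by 0.47 at 42 h against LSEC_0h (adjusted p = 0.00712) and was 0.41 higher at 42 h than at 2 h (adjusted p = 0.0157), with overlapping arrays in both. The second of these calls was lost without LSEC_42h array 2 (adjusted p = 0.052). Neither the 2 h difference of 0.06 (adjusted p = 0.688) nor the LMEC_0h difference of 0.30 (adjusted p = 0.0588) from LSEC_0h passed. The inducible Hsp90aa1 and the constitutive HSP70 Hspa8 were not analysed here.

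Small heat shock proteins hold unfolded proteins without using ATP. Of the 7, 4 were higher and 1 lower in LMEC_0h than in LSEC_0h (median 0.22), and 6 were lower and none higher at 42 h than at 2 h (median -0.22; -0.21 with members at background taken at their bound), of which 4 were lost after quantile normalization. There Hspb3 and Hspb9 turned to 0.045 and 0.052, Hspb2 was at -0.03 (adjusted p = 0.67) and Hspb8 at -0.22 (adjusted p = 0.13), whereas Hspb1 and Hspb7 still passed. The 1 lower in LMEC_0h was Hspb3, at background in both fresh groups. Its call was lost without LSEC_0h array 13, 16 or 17 or LMEC_0h array 18 or 20 (adjusted p 0.059 to 0.091). Hspb1, known as HSP25 or HSP27 and a partner of actin filaments, was at 12.74, 12.35, 12.95, 12.05 and 12.49 in LMEC_0h and 11.72, 10.98, 11.41, 11.56 and 11.61 in LSEC_0h. The lung arrays were all above the liver ones, 2.09-fold in the mean (log2 difference 1.06 ± 0.24, adjusted p = 0.00151). In culture Hspb1 was at 11.65, 11.75, 12.08 and 10.70 at 2 h and 10.13, 9.42, 9.36 and 10.16 at 42 h. The 2 h arrays overlapped the fresh ones (difference 0.09, adjusted p = 0.763) and the 42 h arrays were below all of them. At 42 h Hspb1 fell 3.22-fold against LSEC_0h (log2 difference -1.69 ± 0.26, adjusted p = 3.16e-05) and 3.43-fold against LSEC_2h (log2 difference -1.78 ± 0.27, adjusted p = 1.92e-05).

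Hspb8, which acts with Bag3 to send damaged proteins to autophagy, was at 7.94, 8.11, 8.0, 7.97 and 8.05 in LMEC_0h and at 6.13, 6.02, 6.16, 6.33 and 6.16 in LSEC_0h, a background level. The lung arrays were all higher, by at least 3.38-fold (log2 difference 1.85 ± 0.09, adjusted p = 2.03e-11). In culture it was at 6.27, 6.33, 6.91 and 6.36 at 2 h, with array 6 above its companions, and at 6.14, 6.12, 6.03 and 6.07 at 42 h, again background. The rise at 2 h was at least 1.16-fold (log2 difference 0.31 ± 0.10, adjusted p = 0.0101), and the level at 42 h was at least 1.16-fold lower than at 2 h (log2 difference -0.38 ± 0.11, adjusted p = 0.00394). Both rest in size on array 6 of LSEC_2h: without it they were 0.16 (adjusted p = 0.028) and -0.23 (adjusted p = 0.0048), with a bound of 1.05-fold for each. Both of these small calls were lost after quantile normalization.

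Hspb6, known as HSP20, was at 7.93, 7.85, 7.77, 7.66 and 7.72 in LMEC_0h, above each LSEC_0h array, which held 6.94, 7.37, 7.22, 7.14 and 7.22. It was 1.52-fold higher in the lung cells (log2 difference 0.61 ± 0.08, adjusted p = 1.08e-05). Its levels of 7.14, 6.78, 6.83 and 6.76 at 2 h and 6.89, 6.94, 6.87 and 7.0 at 42 h overlapped those of fresh liver cells and were lower by 0.30 (adjusted p = 0.00600) and 0.25 (adjusted p = 0.0281). The 42 h call was lost without LSEC_42h array 1 or 3 or without LSEC_0h array 14, 15 or 17 (adjusted p 0.053 to 0.078), and after quantile normalization. The other 4, Hspb2, Hspb3, Hspb7 and Hspb9, rose by 0.13 to 0.55 at 2 h, but after quantile normalization Hspb2 and Hspb3 turned to -0.040 and -0.084 and Hspb9 was at 0.07 (adjusted p = 0.12), so that of these 4 Hspb7 alone still passed. The call of Hspb3, at 0.13, did not pass when any of 11 arrays was dropped in turn (highest adjusted p 0.18).

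The J protein partners of cytosolic HSP70 divided at 2 h. Dnajb1, the HSP40 that pairs with inducible HSP70, was at 9.69, 10.03, 10.17, 9.85 and 9.72 in LMEC_0h, and in LSEC at 10.76, 10.26, 10.67, 10.05 and 10.47 at 0 h, 10.16, 9.85, 10.37 and 9.72 at 2 h and 8.71, 8.81, 8.62 and 8.62 at 42 h. The 0 h and 2 h arrays overlapped, and every 42 h array was below both. It fell 3.37-fold at 42 h against LSEC_0h (log2 difference -1.75 ± 0.15, adjusted p = 6.15e-08) and 2.52-fold against LSEC_2h (log2 difference -1.34 ± 0.16, adjusted p = 1.32e-06). The fall at 2 h was 1.34-fold (log2 difference -0.42 ± 0.15, adjusted p = 0.0203) and was lost without LSEC_2h array 5 or 7 or LSEC_0h array 13 or 15 (adjusted p 0.053 to 0.084). LMEC_0h was 1.46-fold below LSEC_0h, with overlap (log2 difference -0.55 ± 0.14, adjusted p = 0.00426).

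Dnajb6, a J protein that keeps aggregation-prone proteins soluble, went the other way at 2 h. Dnajb6 was at 7.54, 8.08, 7.77, 7.68 and 8.10 in LMEC_0h, and in LSEC at 7.37, 7.36, 7.32, 7.48 and 7.38 at 0 h, 9.96, 9.72, 9.56 and 9.79 at 2 h and 7.35, 7.24, 7.39 and 7.41 at 42 h. The 2 h arrays stood apart from all others, and the 0 h and 42 h arrays overlapped within a narrow range. Dnajb6 rose 5.20-fold at 2 h (log2 difference 2.38 ± 0.11, adjusted p = 2.44e-11) and was 5.32-fold lower at 42 h than at 2 h (log2 difference -2.41 ± 0.11, adjusted p = 3.88e-11). At 42 h against 0 h the difference was -0.03 (adjusted p = 0.817). The LMEC_0h arrays were all above LSEC_0h, 1.37-fold in the mean (log2 difference 0.45 ± 0.10, adjusted p = 0.00125).

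The class A J proteins of the cytosol include Dnaja4 and Dnaja1. Dnaja4 was at 7.11, 7.39, 7.35, 7.03 and 6.90 in LMEC_0h, and in LSEC at 8.15, 7.69, 7.73, 7.44 and 7.77 at 0 h, 8.15, 8.10, 8.46 and 7.56 at 2 h and 6.85, 6.80, 6.91 and 6.75 at 42 h. The 42 h arrays were below all others of liver, 1.91-fold below LSEC_0h (log2 difference -0.93 ± 0.16, adjusted p = 7.93e-05) and 2.36-fold below LSEC_2h (log2 difference -1.24 ± 0.16, adjusted p = 3.95e-06). At 2 h the difference of 0.31 did not pass (adjusted p = 0.0825), though it did after quantile normalization (0.51), without LSEC_2h array 7 (0.48) and without LSEC_0h array 13 (0.41). The LMEC_0h arrays were all below LSEC_0h, 1.51-fold in the mean (log2 difference -0.60 ± 0.15, adjusted p = 0.00260). Dnaja1 rose by 0.70 at 2 h with overlap, was 0.69 lower at 42 h than at 2 h and was 0.49 higher in LMEC_0h than in LSEC_0h. The last of these calls was lost without LSEC_0h array 14 or LMEC_0h array 22 (adjusted p 0.050 to 0.066).

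BAG proteins release the client from HSP70. Bag3, which is known to be induced with the small heat shock proteins, was at 9.72, 10.37, 10.22, 9.98 and 10.33 in LMEC_0h, and in LSEC at 9.53, 9.04, 9.66, 9.37 and 9.72 at 0 h, 10.74, 10.47, 10.84 and 10.03 at 2 h and 9.0, 8.53, 8.67 and 9.07 at 42 h. The 2 h arrays were above all others of liver, and 1 of the 42 h arrays lay just above the lowest LSEC_0h array. Bag3 rose 2.08-fold at 2 h (log2 difference 1.06 ± 0.18, adjusted p = 6.16e-05), was 3.25-fold lower at 42 h than at 2 h (log2 difference -1.70 ± 0.19, adjusted p = 7.31e-07) and was 1.56-fold lower at 42 h than at 0 h (log2 difference -0.64 ± 0.18, adjusted p = 0.00733). LMEC_0h was 1.58-fold above LSEC_0h in the mean, with array 18 just inside the range of LSEC_0h (log2 difference 0.66 ± 0.17, adjusted p = 0.00437). Bag1, Bag5 and Bag4 rose at 42 h against LSEC_0h by 1.05, 0.57 and 0.31, so that the 5 BAG members divided into 3 higher and 2 lower. Bag6, which guides tail-anchored membrane proteins, fell by 0.31, a call lost without LSEC_0h array 13 or 14 (adjusted p 0.052 to 0.062).

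Hspbp1, an exchange factor of HSP70, differed little in size. It was at 8.15, 8.03, 8.17, 8.28 and 8.09 in LMEC_0h and 8.56, 8.49, 8.45, 8.56 and 8.47 in LSEC_0h, without overlap and 1.28-fold lower in lung cells (log2 difference -0.36 ± 0.06, adjusted p = 0.000112). At 8.39, 8.45, 8.25 and 8.34 at 2 h and 8.60, 8.54, 8.51 and 8.46 at 42 h it stayed close to LSEC_0h. Its 2 h difference of -0.15 (adjusted p = 0.0464) turned to 0.048 after quantile normalization and did not pass when any of 12 arrays was dropped in turn (highest adjusted p 0.15). Its 42 h against 2 h difference of 0.17 (adjusted p = 0.0339) turned to -0.062 after quantile normalization and was lost without any 1 of LSEC_42h arrays 1, 2 and 3 or LSEC_2h arrays 6 and 7 (adjusted p 0.050 to 0.11). Hspbap1, which binds Hspb1, rose by 0.65 at 42 h.

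**Figure D3:**
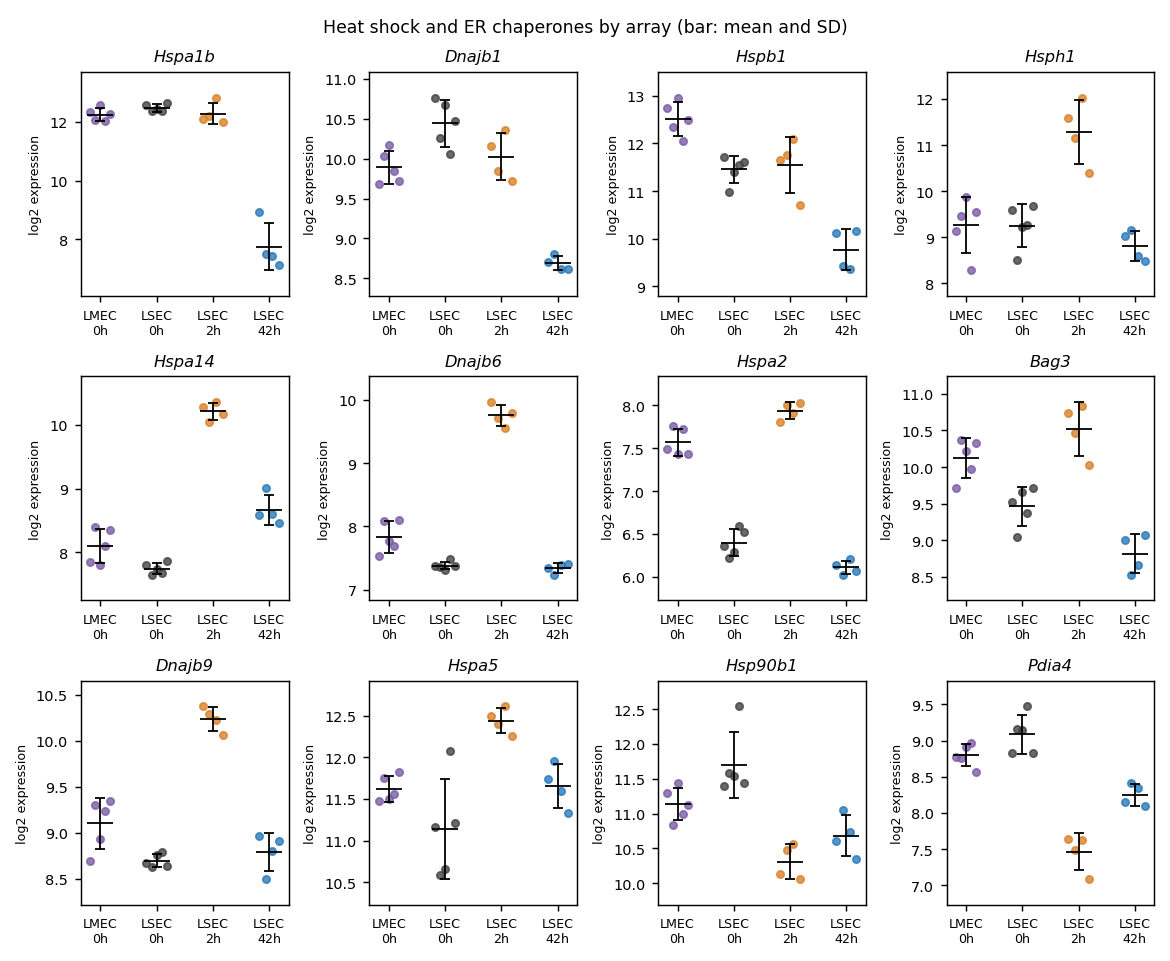
Level by array (points; log2 expression) of 12 heat shock and ER chaperones in LMEC_0h and LSEC at 0 h, 2 h and 42 h, with the mean and SD. The 4 arrays of Hspa1b at 42 h lie between 7.13 and 8.93, below all others, and Hsp90b1 and Pdia4 lie lower at 2 h than at 0 h while Hspa5 and Dnajb9 lie higher.

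Promoters were examined for the element that HSF1 binds, taken as a pair of its units: GAANNTTC or TTCNNGAA, where N is any base. Both words read the same on either strand, and they overlap where 3 units stand in a row. RefSeq (GRCr8) gave a window from 250 bases before to 50 bases after the start for 60 of the 74 members, and 15 of these 60 held a pair (25%), beside 15.4% of all 27457 rat promoters of that length. A run of 3 units stood in 4 members, Hsph1, Dnaja1, Hspe1 and Cct4 (6.67%, beside 0.736% of all promoters). A match describes the letters and not a bound site. Of the 15 with a pair, 10 rose and 2 fell at 2 h, and 5 rose and 5 fell at 42 h against LSEC_0h. Of the 42 with neither this pair nor the ER element described later, 17 rose and 12 fell at 2 h, and 19 rose and 9 fell at 42 h. In LMEC_0h against LSEC_0h, 10 of the 15 were higher and 1 lower, and 6 of the 42 were higher and 8 lower. Between 42 h and 2 h, 4 of the 15 were higher and 9 lower, and 20 of the 42 were higher and 14 lower. Over all genes tested, 41.4% rose and 32.7% fell at 2 h, and 29.7% rose and 20.8% fell at 42 h. The shares higher and lower were 19.8% and 27.7% in LMEC_0h against LSEC_0h, and 33.1% and 38.9% between 42 h and 2 h. Calls over all genes with a pair were not counted, and a link between the pair and these changes was not tested.

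The promoters of 3 known HSF1 targets that held a match are shown: Hsph1 and Bag3, which rose at 2 h, and Dnajb1, which did not rise. All 3 were lower at 42 h than at 2 h. Hspb1, another known target, also held pairs and is not shown, and Hspa1b had no promoter window. Capitals mark the matched pairs. Hsph1 (chr12:10427118-10427417, plus strand) holds 3 matches, of which 2 overlap and span bases -36 to -24 from the start. Dnajb1 (chr19:41431092-41431391, minus strand) holds 2, at bases -11 to -4 and 17 to 24. Bag3 (chr1:192533210-192533509, plus strand) holds 1, at bases -132 to -125 from the start.
Hsph1: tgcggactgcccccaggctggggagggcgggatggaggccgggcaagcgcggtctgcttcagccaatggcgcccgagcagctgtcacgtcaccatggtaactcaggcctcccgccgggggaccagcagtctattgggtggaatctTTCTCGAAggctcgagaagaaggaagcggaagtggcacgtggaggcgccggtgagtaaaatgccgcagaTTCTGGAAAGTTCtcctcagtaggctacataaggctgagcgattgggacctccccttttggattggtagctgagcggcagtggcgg
Dnajb1: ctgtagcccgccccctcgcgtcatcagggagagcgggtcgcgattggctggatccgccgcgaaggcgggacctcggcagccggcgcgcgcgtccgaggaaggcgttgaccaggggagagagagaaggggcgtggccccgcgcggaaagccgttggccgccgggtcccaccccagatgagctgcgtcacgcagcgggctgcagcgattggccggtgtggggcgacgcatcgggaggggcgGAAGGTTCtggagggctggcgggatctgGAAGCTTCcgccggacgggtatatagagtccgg
Bag3: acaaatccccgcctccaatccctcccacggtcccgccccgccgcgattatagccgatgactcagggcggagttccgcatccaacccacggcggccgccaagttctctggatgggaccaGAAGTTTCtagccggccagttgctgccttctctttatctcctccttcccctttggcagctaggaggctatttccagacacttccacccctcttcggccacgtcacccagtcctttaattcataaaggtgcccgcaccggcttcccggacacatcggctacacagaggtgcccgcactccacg

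**Figure D4:**
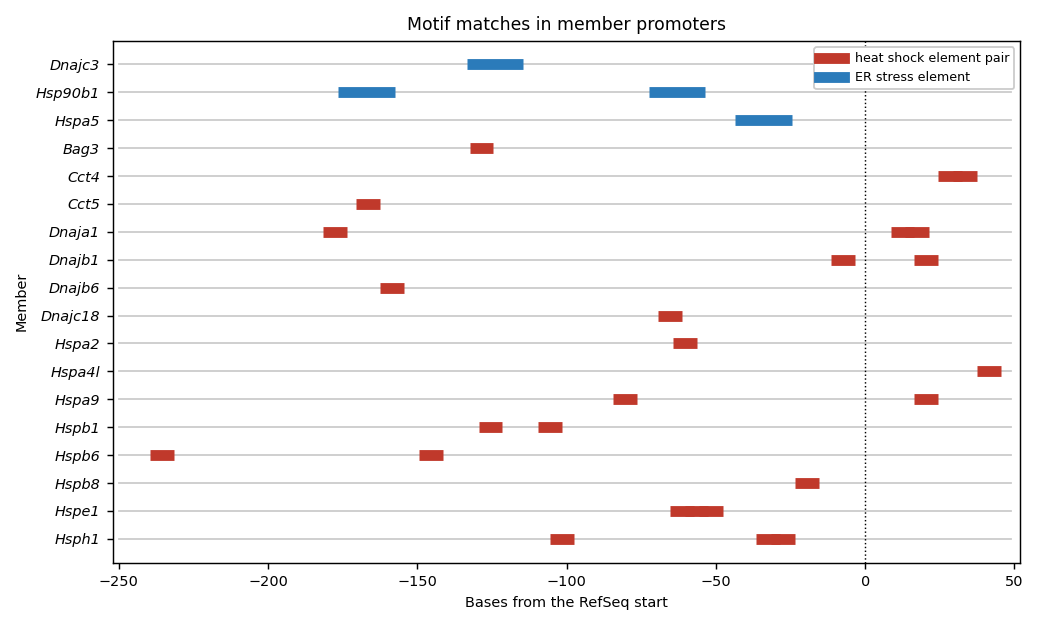
Positions of the heat shock element pairs (15 members) and ER stress elements (3 members) in the member promoters, in bases from the RefSeq start (0, dotted), from 250 before to 50 after. Adjoining blocks in Hspe1, Hsph1, Cct4 and Dnaja1 are runs of 3 or more units, and Hsp90b1 holds 2 ER stress elements.

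The remaining J proteins serve other places than the heat shock response, and those far from LSEC_0h differed in direction. Dnajc22, a membrane J protein whose fly counterpart Wurst acts in endocytosis, was at 6.71, 6.57, 6.54, 6.60 and 6.44 in LMEC_0h and 8.15, 8.14, 8.21, 8.26 and 8.07 in LSEC_0h. Its lung arrays were all lower, 3.02-fold in the mean (log2 difference -1.60 ± 0.08, adjusted p = 8.19e-12), which was the largest organ difference downward among the members. In culture it was at 6.95, 6.88, 7.17 and 6.84 at 2 h and 7.45, 7.76, 7.66 and 7.72 at 42 h, with no overlap between any 2 of these groups. Dnajc22 fell 2.31-fold at 2 h (log2 difference -1.21 ± 0.08, adjusted p = 1.51e-09), was 1.61-fold higher at 42 h than at 2 h (log2 difference 0.69 ± 0.08, adjusted p = 1.74e-06) and remained 1.43-fold below LSEC_0h (log2 difference -0.52 ± 0.08, adjusted p = 3.61e-05).

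Dnajc13, which remodels endosomes, was at 8.42, 8.51, 8.22, 8.15 and 8.48 in LMEC_0h and 9.43, 9.54, 9.42, 9.52 and 9.65 in LSEC_0h. The lung arrays were all below the liver ones, 2.23-fold (log2 difference -1.15 ± 0.11, adjusted p = 9.24e-08). Its levels were 9.33, 9.25, 9.09 and 9.69 at 2 h, overlapping LSEC_0h (difference -0.17, adjusted p = 0.185), and 9.10, 8.85, 9.12 and 9.23 at 42 h, which lay below them (log2 difference -0.43 ± 0.12, adjusted p = 0.00447). The 2 h difference passed without LSEC_2h array 7 (-0.29, adjusted p = 0.022). Against LSEC_2h the 42 h difference was -0.26 (adjusted p = 0.0626), and it passed after quantile normalization (-0.43) and without LSEC_2h array 6 (-0.34) or LSEC_42h array 12 (-0.31). Dnajc14, a J protein of the ER membrane, was at 8.48, 7.84, 8.47, 8.40 and 7.62 in LMEC_0h, and in LSEC at 8.55, 8.70, 8.68, 8.46 and 8.77 at 0 h, 6.74, 6.66, 6.75 and 6.72 at 2 h and 7.77, 7.93, 8.02 and 8.02 at 42 h, in 3 separate ranges. It fell 3.77-fold at 2 h (log2 difference -1.92 ± 0.15, adjusted p = 7.40e-09), was 2.32-fold higher at 42 h than at 2 h (log2 difference 1.22 ± 0.16, adjusted p = 2.59e-06) and was 1.62-fold below LSEC_0h at 42 h (log2 difference -0.70 ± 0.15, adjusted p = 0.000697). LMEC_0h lay 1.38-fold below LSEC_0h, with 2 arrays inside its range (log2 difference -0.47 ± 0.14, adjusted p = 0.00969), and this call was lost without LMEC_0h arrays 19 and 22, its 2 lowest.

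Dnajc2 joins Hspa14 at the ribosome and Dnajc9 carries histones. Dnajc2 was at 7.40, 7.38, 7.49, 7.34 and 7.47 in LMEC_0h, and in LSEC at 7.43, 7.47, 7.39, 7.59 and 7.42 at 0 h, 7.13, 7.35, 7.17 and 6.95 at 2 h and 8.67, 8.83, 8.38 and 7.98 at 42 h. The 42 h arrays were above all others, 2.00-fold above LSEC_0h (log2 difference 1.0 ± 0.13, adjusted p = 4.00e-06) and 2.49-fold above LSEC_2h (log2 difference 1.31 ± 0.13, adjusted p = 1.85e-07). Its fall at 2 h was small (log2 difference -0.31 ± 0.13, adjusted p = 0.0337) and was lost without any 1 of LSEC_2h arrays 4, 6 and 7 or LSEC_0h arrays 14 and 16 (adjusted p 0.051 to 0.12), and after quantile normalization. LMEC_0h overlapped LSEC_0h (difference -0.05, adjusted p = 0.762). Of these partners, Hspa14 had its highest level at 2 h and Dnajc2 at 42 h.

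Dnajc9 was at 8.67, 8.48, 8.58, 8.69 and 8.39 in LMEC_0h, and in LSEC at 8.66, 8.75, 8.52, 8.37 and 8.47 at 0 h, 8.07, 7.75, 8.22 and 7.58 at 2 h and 8.97, 9.76, 9.24 and 8.90 at 42 h, again in separate ranges. It fell 1.57-fold at 2 h (log2 difference -0.65 ± 0.16, adjusted p = 0.00128) and rose 1.58-fold at 42 h against LSEC_0h (log2 difference 0.66 ± 0.16, adjusted p = 0.00191), with a 2.48-fold difference between 42 h and 2 h (log2 difference 1.31 ± 0.17, adjusted p = 2.39e-06). The LMEC_0h arrays overlapped LSEC_0h (difference 0.01, adjusted p = 0.972). Over all 25 of these J proteins, Dnaja4, Dnajb1 and Dnajb6 included, 8 rose and 7 fell at 2 h, 10 rose and 7 fell at 42 h, and 4 were higher and 6 lower in LMEC_0h than in LSEC_0h. Dnajc21, which takes part in making the large ribosomal subunit, rose by 0.90 at 2 h and 0.50 at 42 h. Dnajc7 and Dnajc24, the second of which takes part in modifying elongation factor 2, rose by 0.77 and 0.71 at 42 h. The median difference of the class was at most 0.09 in size in each comparison.

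The CCT subunits moved together in later culture. All 6 measured subunits rose at 42 h against LSEC_0h (median 1.29) and were higher at 42 h than at 2 h (median 0.92), without overlap of arrays. Of all genes, 29.7% rose at 42 h against LSEC_0h and 48.7% had no overlap. Between 42 h and 2 h, 33.1% of all genes were higher and 64.4% had no overlap. At 2 h, 5 rose and 1 fell (median 0.45), and 4 of the 6 were higher in LMEC_0h than in LSEC_0h (median 0.28). Cct2 was at 9.74, 9.73, 9.84, 9.65 and 9.67 in LMEC_0h, and in LSEC at 9.15, 9.14, 9.08, 9.22 and 9.34 at 0 h, 9.88, 9.86, 9.88 and 9.53 at 2 h and 10.90, 11.13, 10.81 and 10.41 at 42 h. The 3 ranges were separate and stood in the order of time. It rose 1.52-fold at 2 h (log2 difference 0.61 ± 0.12, adjusted p = 0.000177) and 3.09-fold at 42 h (log2 difference 1.63 ± 0.12, adjusted p = 5.75e-09), and the later level was 2.03-fold above that at 2 h (log2 difference 1.02 ± 0.12, adjusted p = 1.44e-06). All LMEC_0h arrays were above LSEC_0h, 1.45-fold in the mean (log2 difference 0.54 ± 0.11, adjusted p = 0.000596).

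Cct5 was at 10.26, 10.29, 10.26, 10.25 and 9.91 in LMEC_0h, and in LSEC at 9.74, 9.75, 9.80, 9.84 and 9.85 at 0 h, 9.96, 10.32, 10.12 and 10.14 at 2 h and 11.37, 11.61, 11.33 and 10.96 at 42 h, in the same order. The rise was 1.27-fold at 2 h (log2 difference 0.34 ± 0.11, adjusted p = 0.0130), a call lost without LSEC_2h array 5 (adjusted p = 0.053), and 2.88-fold at 42 h (log2 difference 1.52 ± 0.11, adjusted p = 1.01e-08). Against LSEC_2h it was 2.27-fold higher at 42 h (log2 difference 1.19 ± 0.12, adjusted p = 1.97e-07). The LMEC_0h arrays were above LSEC_0h too, 1.32-fold, with array 22 closest to it (log2 difference 0.40 ± 0.11, adjusted p = 0.00565).

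Cct3 was at 10.55, 10.69, 10.46, 10.46 and 10.72 in LMEC_0h, and in LSEC at 10.38, 10.10, 10.15, 10.44 and 10.32 at 0 h, 10.63, 11.02, 10.92 and 10.81 at 2 h and 11.67, 11.88, 11.53 and 11.23 at 42 h. Cct4 was at 10.78, 10.70, 10.80, 10.82 and 10.82 in LMEC_0h, and in LSEC at 10.55, 10.40, 10.38, 10.68 and 10.57 at 0 h, 10.95, 11.36, 11.13 and 11.24 at 2 h and 11.99, 11.98, 11.68 and 11.54 at 42 h. For both subunits the 3 times gave separate ranges that stood in order. Cct3 rose 1.48-fold at 2 h (log2 difference 0.57 ± 0.12, adjusted p = 0.000423) and 2.46-fold at 42 h (log2 difference 1.3 ± 0.12, adjusted p = 1.31e-07), and was 1.66-fold higher at 42 h than at 2 h (log2 difference 0.73 ± 0.13, adjusted p = 7.13e-05). Cct4 rose 1.58-fold (log2 difference 0.66 ± 0.10, adjusted p = 2.39e-05) and 2.43-fold (log2 difference 1.28 ± 0.10, adjusted p = 2.78e-08), and was 1.54-fold higher at 42 h than at 2 h (log2 difference 0.63 ± 0.11, adjusted p = 8.04e-05). Their differences between the organs were small, with all lung arrays above the liver ones, 1.23-fold for Cct3 (log2 difference 0.30 ± 0.11, adjusted p = 0.0398) and 1.21-fold for Cct4 (log2 difference 0.27 ± 0.10, adjusted p = 0.0320). The Cct3 call was lost without any 1 of LSEC_0h arrays 14, 15 and 17 or LMEC_0h arrays 18, 19 and 22 (adjusted p 0.056 to 0.10). The Cct4 call was lost without any 1 of LSEC_0h arrays 14 and 15 or LMEC_0h arrays 18, 20, 21 and 22 (adjusted p 0.051 to 0.080), and both were lost after quantile normalization.

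Cct7 was the exception at 2 h. It was at 9.45, 9.51, 9.42, 9.37 and 9.34 in LMEC_0h, and in LSEC at 9.67, 9.54, 9.49, 9.68 and 9.69 at 0 h, 8.85, 9.17, 8.98 and 8.97 at 2 h and 10.48, 10.69, 10.12 and 9.92 at 42 h. The 2 h arrays were all below and the 42 h arrays all above the fresh ones. Cct7 fell 1.54-fold at 2 h (log2 difference -0.62 ± 0.12, adjusted p = 0.000203), rose 1.61-fold at 42 h (log2 difference 0.69 ± 0.12, adjusted p = 0.000141) and differed 2.48-fold between 42 h and 2 h (log2 difference 1.31 ± 0.13, adjusted p = 1.30e-07). The difference of -0.19 between LMEC_0h and LSEC_0h did not pass (adjusted p = 0.183), but did in a fit of these 2 groups alone (adjusted p = 0.031). Cct8 rose by 0.32 at 2 h, with overlap and lost without LSEC_2h array 5 or 6 (adjusted p 0.063 to 0.069), and by 1.14 at 42 h. Within the 42 h group, array 12 was the lowest for each of the 6 subunits.

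**Figure D5:**
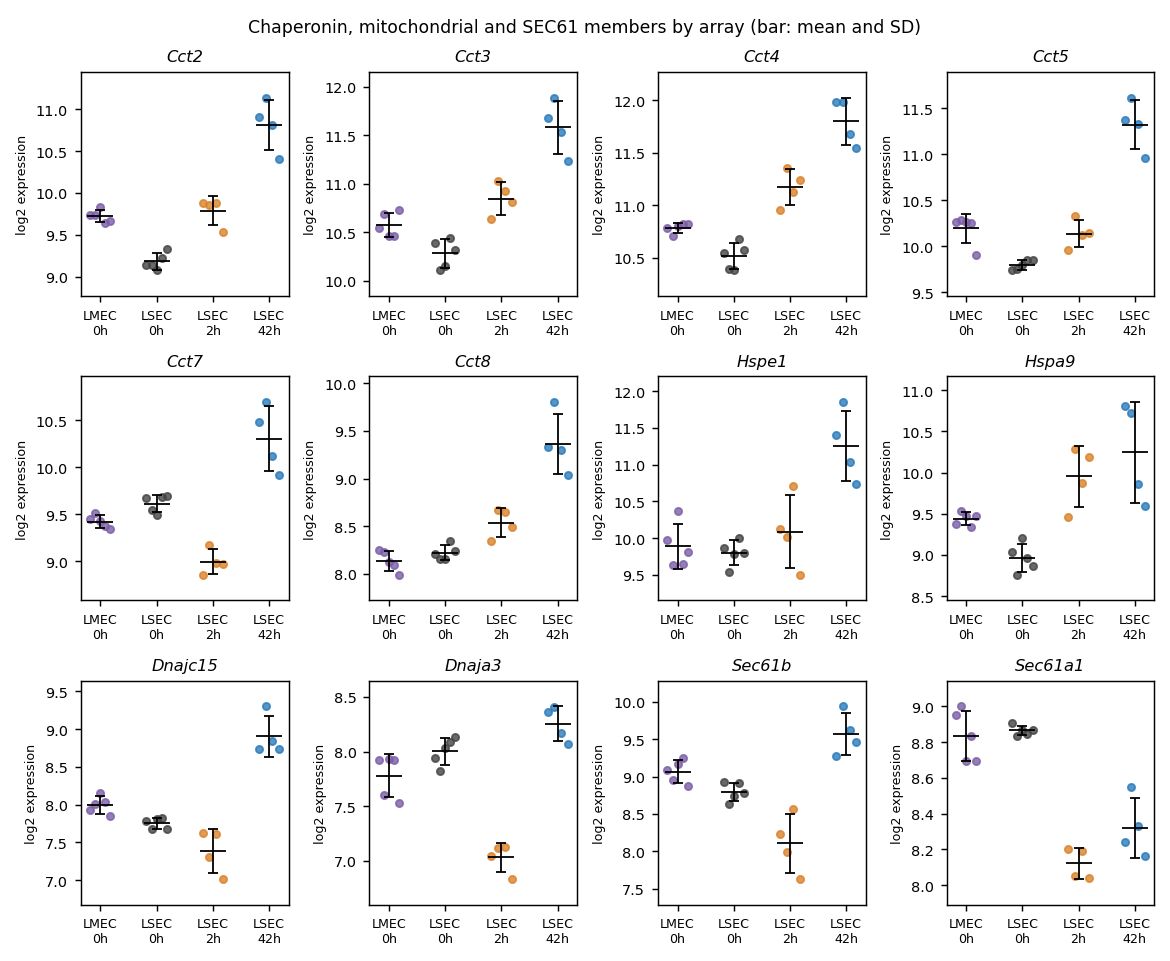
Level by array (points; log2 expression) of the 6 CCT subunits, 4 mitochondrial chaperones and 2 SEC61 proteins in LMEC_0h and LSEC at 0 h, 2 h and 42 h, with the mean and SD. Each CCT subunit is highest on the 42 h arrays, and Cct7, Dnaja3, Sec61b and Sec61a1 are lower at 2 h than at 0 h.

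Among the 7 mitochondrial chaperones 4 rose and none fell at 42 h against LSEC_0h (median 0.37), after 2 had risen and 4 fallen at 2 h (median -0.31). Hspe1, the HSP10 lid of the mitochondrial chaperonin, was at 9.97, 9.64, 10.37, 9.64 and 9.81 in LMEC_0h, and in LSEC at 9.87, 9.54, 9.78, 10.003 and 9.80 at 0 h, 10.13, 10.01, 10.71 and 9.50 at 2 h and 11.41, 11.85, 11.03 and 10.74 at 42 h. The 42 h arrays were above all others, and the 2 h arrays spanned the fresh ones (difference 0.29, adjusted p = 0.264). It rose 2.74-fold at 42 h against LSEC_0h (log2 difference 1.45 ± 0.23, adjusted p = 4.33e-05) and was 2.24-fold above LSEC_2h (log2 difference 1.16 ± 0.24, adjusted p = 0.000376). LMEC_0h overlapped LSEC_0h (difference 0.09, adjusted p = 0.769). Its ring-forming partner Hspd1 was not analysed here.

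Hspa9, the mortalin that pulls proteins into the matrix, was at 9.38, 9.53, 9.48, 9.34 and 9.48 in LMEC_0h, and in LSEC at 9.03, 8.76, 9.21, 8.97 and 8.86 at 0 h, 9.47, 10.28, 9.88 and 10.19 at 2 h and 10.81, 10.72, 9.86 and 9.60 at 42 h. Arrays at both culture times were above all LSEC_0h arrays and overlapped each other. It rose 1.98-fold at 2 h (log2 difference 0.99 ± 0.21, adjusted p = 0.000495) and 2.43-fold at 42 h (log2 difference 1.28 ± 0.21, adjusted p = 8.09e-05), with a difference of 0.29 between 42 h and 2 h that did not pass (adjusted p = 0.252) but did without LSEC_42h array 12 (0.51, adjusted p = 0.039). The LMEC_0h arrays did not overlap LSEC_0h, but the difference of 0.47 did not pass (adjusted p = 0.0631). It passed in a fit of these 2 groups alone (adjusted p = 0.00095), with array weights (adjusted p = 0.034), and when any of 4 cultured arrays was dropped (LSEC_2h array 4, LSEC_42h arrays 1, 2 and 12; adjusted p 0.032 to 0.049).

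Both of the J proteins of mortalin given here were lower at 2 h than at 0 h. Dnaja3 (Tid1) was at 7.92, 7.60, 7.93, 7.92 and 7.52 in LMEC_0h, and in LSEC at 7.94, 7.82, 8.03, 8.08 and 8.13 at 0 h, 7.05, 7.11, 7.12 and 6.83 at 2 h and 8.36, 8.41, 8.17 and 8.07 at 42 h. Dnaja3 on the 2 h arrays was below all others, 1.96-fold below LSEC_0h (log2 difference -0.97 ± 0.11, adjusted p = 3.54e-07), and the 42 h arrays were 2.33-fold above them (log2 difference 1.22 ± 0.11, adjusted p = 5.16e-08). At 42 h against LSEC_0h the difference of 0.25 missed the threshold (adjusted p = 0.0542). It passed under 5 other settings (adjusted p 0.023 to 0.050) and when LSEC_2h array 7, LSEC_42h array 12, LSEC_0h array 17 or LMEC_0h array 22 was dropped (adjusted p 0.029 to 0.047). LMEC_0h and LSEC_0h overlapped (difference -0.22, adjusted p = 0.0761), a difference that passed without LSEC_0h array 14 (-0.27, adjusted p = 0.047).

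Dnajc15, a J protein of the inner membrane import motor, was at 7.93, 8.01, 8.16, 8.04 and 7.85 in LMEC_0h, and in LSEC at 7.78, 7.68, 7.81, 7.82 and 7.68 at 0 h, 7.63, 7.30, 7.60 and 7.02 at 2 h and 8.74, 9.30, 8.84 and 8.73 at 42 h, in 3 separate ranges. It rose 2.22-fold at 42 h against LSEC_0h (log2 difference 1.15 ± 0.13, adjusted p = 9.02e-07) and was 2.86-fold above LSEC_2h (log2 difference 1.51 ± 0.13, adjusted p = 3.87e-08). Its fall at 2 h (log2 difference -0.36 ± 0.13, adjusted p = 0.0158) was lost without LSEC_2h array 7 (-0.24, adjusted p = 0.082) and after quantile normalization. The LMEC_0h arrays were all above LSEC_0h, by 0.24, which did not pass (adjusted p = 0.103). It passed in a fit of these 2 groups alone (adjusted p = 0.012) and with array weights (adjusted p = 0.027).

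In the ER lumen the HSP70 and the HSP90 went opposite ways at 2 h. Hspa5, or BiP, was at 11.48, 11.75, 11.50, 11.56 and 11.82 in LMEC_0h, and in LSEC at 11.16, 10.59, 10.66, 12.08 and 11.21 at 0 h, 12.499, 12.40, 12.61 and 12.25 at 2 h and 11.74, 11.96, 11.59 and 11.33 at 42 h. All 2 h arrays were above all others, and the LSEC_0h arrays had a wide spread, with array 16 the highest. Hspa5 rose 2.46-fold at 2 h (log2 difference 1.3 ± 0.22, adjusted p = 4.91e-05), and its level at 42 h was 1.73-fold below that at 2 h (log2 difference -0.79 ± 0.23, adjusted p = 0.00624). The 42 h difference of 0.51 from LSEC_0h did not pass (adjusted p = 0.0632) in the deposited values but passed after quantile normalization (0.59). The LMEC_0h arrays lay within the range of LSEC_0h (difference 0.48, adjusted p = 0.0672). Both of these differences passed without LSEC_0h array 16 (0.75 at 42 h and 0.72 in LMEC_0h), and the 42 h one also without LSEC_42h array 12 (0.62). With array weights both passed too (adjusted p = 0.031 at 42 h and 0.048 in LMEC_0h).

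Hsp90b1, or GRP94, was at 11.29, 10.84, 11.43, 10.99 and 11.13 in LMEC_0h, and in LSEC at 11.39, 11.58, 11.54, 12.54 and 11.43 at 0 h, 10.13, 10.47, 10.57 and 10.06 at 2 h and 10.60, 11.04, 10.73 and 10.34 at 42 h. Arrays at both culture times were below all LSEC_0h arrays, and array 16 of LSEC_0h, which was also high for Hspa5, stood far above the other 4. Hsp90b1 fell 2.62-fold at 2 h (log2 difference -1.39 ± 0.21, adjusted p = 1.27e-05) and 2.02-fold at 42 h (log2 difference -1.02 ± 0.21, adjusted p = 0.000548), and the difference between 42 h and 2 h was 0.37 (adjusted p = 0.136). That last difference passed without LSEC_0h array 16 (adjusted p = 0.042). LMEC_0h was 1.48-fold below LSEC_0h with overlap (log2 difference -0.56 ± 0.20, adjusted p = 0.0256). This organ call was lost without LSEC_0h array 16 (-0.35), or without LMEC_0h array 19 or 21 (adjusted p 0.054 to 0.068).

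BiP is helped by J proteins of the lumen. Dnajb9 (ERdj4), a marker of the unfolded protein response, was at 8.69, 9.30, 8.93, 9.24 and 9.34 in LMEC_0h, and in LSEC at 8.67, 8.62, 8.76, 8.79 and 8.63 at 0 h, 10.37, 10.29, 10.23 and 10.06 at 2 h and 8.96, 8.5, 8.80 and 8.91 at 42 h. Dnajb9 on the 2 h arrays was above all others, 2.91-fold above LSEC_0h (log2 difference 1.54 ± 0.13, adjusted p = 1.54e-08), and the 42 h arrays were 2.72-fold below them (log2 difference -1.45 ± 0.13, adjusted p = 6.41e-08). At 42 h the difference from LSEC_0h was 0.10 (adjusted p = 0.560). The LMEC_0h arrays were 1.32-fold above LSEC_0h in the mean, with array 18 inside its range (log2 difference 0.40 ± 0.12, adjusted p = 0.00964), and this call was lost without LMEC_0h arrays 19 and 22 together.

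Dnajc10 (ERdj5), a reductase that opens disulphide bonds before degradation, was lower than in LSEC_0h in all 3 comparisons with it. It was at 8.13, 8.04, 8.13, 8.11 and 7.84 in LMEC_0h, and in LSEC at 9.26, 9.27, 8.93, 9.28 and 9.05 at 0 h, 8.80, 8.41, 8.71 and 8.38 at 2 h and 8.30, 8.45, 8.45 and 8.5 at 42 h, where both cultured groups were below all LSEC_0h arrays. It fell 1.5-fold at 2 h (log2 difference -0.58 ± 0.10, adjusted p = 6.93e-05) and 1.66-fold at 42 h (log2 difference -0.73 ± 0.10, adjusted p = 1.27e-05). The LMEC_0h arrays were 2.16-fold below LSEC_0h (log2 difference -1.11 ± 0.10, adjusted p = 3.38e-08) with no overlap. Between 42 h and 2 h the difference was -0.15 (adjusted p = 0.217), but it passed after quantile normalization (-0.38, adjusted p = 0.0044).

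Dnajc3 (p58IPK), which also restrains the kinase PERK, was at 8.34, 8.34, 8.44, 8.26 and 8.43 in LMEC_0h, and in LSEC at 8.14, 8.02, 8.22, 8.62 and 8.16 at 0 h, 8.55, 8.76, 8.75 and 8.27 at 2 h and 8.78, 8.95, 8.79 and 8.72 at 42 h. The 42 h arrays were above all fresh ones, 1.49-fold in the mean (log2 difference 0.58 ± 0.11, adjusted p = 0.000397), and the 2 h arrays overlapped them (log2 difference 0.35 ± 0.11, adjusted p = 0.0105). The 2 h call was lost without LSEC_2h array 6, LSEC_0h array 15 and LMEC_0h array 20 together. Each was the highest of its group in hepatocyte markers. LMEC_0h overlapped LSEC_0h (difference 0.13, adjusted p = 0.339). Dnajb11 (ERdj3) fell by 0.37 at 2 h, a call lost without LSEC_2h array 7 (adjusted p = 0.076) and after quantile normalization (-0.18, adjusted p = 0.23). Of the 6 lumen members, 3 rose and 3 fell at 2 h, Dnajb11 among the 3 that fell, and 1 rose and 2 fell at 42 h against LSEC_0h.

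The ER stress element, to which ATF6 binds, is the word CCAAT followed after 9 bases of any kind by CCACG, searched on both strands. It stood in 3 of the 60 member promoters (5%), those of Hspa5, Hsp90b1 and Dnajc3, beside 0.0765% of all 27457. The promoters of Hspa5 (chr3:38452766-38453065, plus strand) and Hsp90b1 (chr7:23012244-23012543, minus strand) are shown because the 2 genes share the element and moved apart at 2 h. Capitals mark the whole element, at bases -43 to -25 in Hspa5 and at bases -176 to -158 and -72 to -54 in Hsp90b1.
Hspa5: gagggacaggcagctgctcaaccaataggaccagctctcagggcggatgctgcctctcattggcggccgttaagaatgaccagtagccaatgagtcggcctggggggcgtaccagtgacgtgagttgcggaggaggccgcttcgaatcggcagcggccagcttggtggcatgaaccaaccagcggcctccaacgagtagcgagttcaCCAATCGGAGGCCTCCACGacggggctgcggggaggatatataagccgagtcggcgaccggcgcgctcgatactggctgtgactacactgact
Hsp90b1: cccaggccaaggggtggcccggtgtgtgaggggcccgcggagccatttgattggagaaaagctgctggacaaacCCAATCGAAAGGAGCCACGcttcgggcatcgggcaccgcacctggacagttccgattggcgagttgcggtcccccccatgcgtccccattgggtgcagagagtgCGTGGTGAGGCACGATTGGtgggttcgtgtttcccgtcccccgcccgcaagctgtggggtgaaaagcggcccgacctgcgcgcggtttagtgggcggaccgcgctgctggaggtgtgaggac

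Protein disulphide isomerases form and exchange disulphide bonds. Pdia4 (ERp72) was at 8.78, 8.76, 8.91, 8.96 and 8.57 in LMEC_0h, and in LSEC at 8.82, 9.16, 9.14, 9.47 and 8.83 at 0 h, 7.64, 7.5, 7.62 and 7.09 at 2 h and 8.15, 8.41, 8.34 and 8.09 at 42 h. The ranges were separate, lowest at 2 h. Pdia4 fell 3.08-fold at 2 h (log2 difference -1.62 ± 0.14, adjusted p = 2.30e-08) and 1.79-fold at 42 h (log2 difference -0.84 ± 0.14, adjusted p = 7.01e-05), and was 1.72-fold higher at 42 h than at 2 h (log2 difference 0.78 ± 0.15, adjusted p = 0.000138). LMEC_0h overlapped LSEC_0h (difference -0.29, adjusted p = 0.0810). This difference passed without LSEC_0h array 13 (adjusted p = 0.044) or 17 (adjusted p = 0.045).

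Pdia5 gave the largest upward difference between LMEC_0h and LSEC_0h in the ER lumen, isomerase and SEC61 classes. It was at 10.15, 9.95, 9.63, 10.39 and 9.61 in LMEC_0h and 8.61, 8.53, 8.5, 8.94 and 8.63 in LSEC_0h. The lung arrays were all higher, 2.48-fold (log2 difference 1.31 ± 0.16, adjusted p = 1.86e-06). In culture Pdia5 was at 8.53, 8.07, 8.63 and 8.0 at 2 h, overlapping LSEC_0h (difference -0.33, adjusted p = 0.0780), and at 7.83, 8.10, 7.74 and 7.79 at 42 h. The 2 h difference passed with array weights (-0.45, adjusted p = 0.0039) and without LSEC_2h array 6 (-0.44, adjusted p = 0.029). Pdia5 was 1.71-fold below LSEC_0h at 42 h (log2 difference -0.77 ± 0.17, adjusted p = 0.000796). Its 1.36-fold difference from LSEC_2h (log2 difference -0.44 ± 0.17, adjusted p = 0.0315) was lost without LSEC_42h array 1, 3 or 12 or LSEC_2h array 4 or 6 (adjusted p 0.058 to 0.11).

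Pdia3 (ERp57), which works on glycoproteins with calnexin and calreticulin, was at 10.41, 11.01, 10.68, 10.72 and 10.66 in LMEC_0h, and in LSEC at 10.43, 10.93, 10.52, 10.99 and 10.72 at 0 h, 10.33, 10.19, 10.56 and 10.18 at 2 h and 10.33, 10.83, 10.73 and 10.53 at 42 h. These ranges overlapped. Its fall at 2 h (log2 difference -0.40 ± 0.14, adjusted p = 0.0168) was lost without LSEC_2h array 5 or 7 (adjusted p 0.050 to 0.051), and neither the 42 h difference of -0.11 from LSEC_0h (adjusted p = 0.540) nor that of 0.29 from LSEC_2h (adjusted p = 0.0916) passed. The last of these passed with array weights (adjusted p = 0.029) and without LSEC_42h array 1 or LSEC_2h array 6 (adjusted p 0.037 to 0.045). The LMEC_0h arrays overlapped LSEC_0h too (difference -0.02, adjusted p = 0.907). Pdia2 was at background, and its rise at 2 h, though counted as a call, was lost after quantile normalization (adjusted p = 0.61). Pdia6 was not analysed here.

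The SEC61 channel proteins parted in culture. Sec61b, the small beta subunit, was at 9.08, 8.96, 9.17, 9.24 and 8.87 in LMEC_0h, and in LSEC at 8.92, 8.64, 8.74, 8.91 and 8.79 at 0 h, 8.24, 8.0, 8.57 and 7.63 at 2 h and 9.27, 9.94, 9.62 and 9.47 at 42 h. The 2 h arrays were below and the 42 h arrays above all fresh ones. Sec61b fell 1.61-fold at 2 h (log2 difference -0.69 ± 0.16, adjusted p = 0.000747), rose 1.71-fold at 42 h (log2 difference 0.78 ± 0.16, adjusted p = 0.000499) and was 2.76-fold higher at 42 h than at 2 h (log2 difference 1.47 ± 0.17, adjusted p = 6.41e-07). Sec61b in LMEC_0h overlapped LSEC_0h (difference 0.27, adjusted p = 0.153). This difference passed in a fit of these 2 groups alone (adjusted p = 0.027) and with array weights (adjusted p = 0.047).

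Sec61a1, the pore-forming subunit, was at 8.95, 9.0, 8.69, 8.83 and 8.69 in LMEC_0h, and in LSEC at 8.90, 8.84, 8.87, 8.85 and 8.87 at 0 h, 8.20, 8.05, 8.19 and 8.04 at 2 h and 8.24, 8.55, 8.33 and 8.16 at 42 h. Both cultured groups were below all fresh arrays. It fell 1.67-fold at 2 h (log2 difference -0.74 ± 0.09, adjusted p = 7.07e-07) and 1.46-fold at 42 h (log2 difference -0.54 ± 0.09, adjusted p = 4.24e-05), and between 42 h and 2 h it differed by 0.20 (adjusted p = 0.0565). The last difference passed with no intensity trend, with array weights and without LMEC_0h arrays 19 and 22 together (adjusted p 0.014 to 0.043). It also passed without LSEC_42h array 12 or LMEC_0h array 19 alone (adjusted p 0.026 to 0.049). LMEC_0h arrays overlapped those of LSEC_0h (difference -0.03, adjusted p = 0.778). Its paralogue Sec61a2 rose by 0.49 at 2 h and 0.34 at 42 h, the second a call lost without LSEC_42h array 2 (adjusted p = 0.057).

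Genes that work beside the members were counted from 4 lists that hold none of them, and the genes named from these lists are among those that moved furthest at an adjusted p under 0.05. Of 22 heat shock factors and cytosolic cochaperones, 3 rose and 13 fell at 2 h (median -0.42), and 9 rose and 6 fell at 42 h against LSEC_0h (median 0.17). Serpinh1, the collagen chaperone HSP47, fell by 2.02 and Stub1, the ubiquitin ligase CHIP, fell by 1.41 at 2 h. At 42 h Pfdn6, a subunit of the prefoldin that hands actin and tubulin to CCT, rose by 1.49, and Naca, which meets nascent chains at the ribosome, rose by 1.31. Against 2 h, 16 were higher and 1 lower (median 0.61), and in LMEC_0h against LSEC_0h, 5 were higher and 3 lower (median 0.01).

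Of 39 genes of the ER stress response and ER folding, 10 rose and 22 fell at 2 h (median -0.32), and 5 rose and 12 fell at 42 h (median -0.04). The stress-induced Ddit3 (CHOP) and Ppp1r15a (GADD34) rose by 1.77 and 1.54 at 2 h, and the lectin chaperone Calr fell by 1.65. Calr and its partner Canx were lower at 42 h as well, with differences of -1.41 and -1.17. At 42 h against 2 h, 19 were higher and 6 lower (median 0.30), with Ppp1r15a and Ddit3 among the lower at -2.34 and -1.88. In LMEC_0h against LSEC_0h, 6 were higher and 10 lower (median -0.07), and Ppp1r15a and Atf4, a transcription factor of the same response, were higher by 1.93 and 1.22.

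Of 24 genes of ER targeting and translocation, 3 rose and 17 fell at 2 h (median -0.46), 14 rose and 1 fell at 42 h against LSEC_0h (median 0.42), and 21 were higher and 1 lower at 42 h than at 2 h (median 0.87). Sec11c, a signal peptidase subunit, rose by 1.52 at 42 h. Of 21 genes of mitochondrial import and quality control, 2 rose and 14 fell at 2 h (median -0.32), 15 rose and none fell at 42 h (median 0.42), and 19 were higher and none lower at 42 h than at 2 h (median 0.73). Timm8a1 and Timm10, small chaperones of the intermembrane space, rose by 1.46 and 1.24 at 42 h. In LMEC_0h against LSEC_0h, 5 of the 24 were higher and 5 lower (median -0.09), and none of the 21 were higher and 6 lower (median -0.15). These shares stand beside the 41.4% of all genes that rose and 32.7% that fell at 2 h, the 29.7% and 20.8% at 42 h, and the 33.1% higher and 38.9% lower between 42 h and 2 h. In LMEC_0h against LSEC_0h 19.8% of all genes were higher and 27.7% lower, and the counts of the 24 and of those lower among the 21 lie near these shares.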

How the data were processed

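RNA of rat endothelial cells was labelled as biotinylated cRNA and measured on 18 one-colour Affymetrix arrays, per the labels' protocols. The deposited table gives log2 values for 11484 probe sets; how the authors corrected background, normalized and summarised these log2 values is not given in the sources used here. They were used as deposited. Of 11427 probe sets that are not controls, 11018 had 1 gene symbol in the platform annotation, none shared a symbol, and 409 without a symbol were left out. One linear model with 4 groups was fitted to all 18 arrays (limma 3.58.1 in R 4.3.3, lmFit and eBayes with an intensity trend), with Benjamini-Hochberg adjustment over 11018 genes and a two-sided threshold of 0.05, and 4 comparisons. Before use it was tested on simulated data that held 200 genes of known change. Far more genes were called in each comparison here, so the simulation cannot show how the fit performs under such wide change. Summaries used Python 3.11.15 and pandas 2.3.3.

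The members, classes, lists and tests were chosen with earlier results of these data known. Values by array are given for 17 measured genes of a fixed set of 22 and, in each comparison, the 5 called members furthest up and the 5 furthest down whose groups did not overlap, 36 members in all. From each pathway list up to 4 called genes per comparison could be named. Alternatives were quantile normalization, a filter on dim genes, a fit of the compared groups alone, no intensity trend, array weights, inclusion of the unnamed probe sets and a 1.5-fold minimum in the test. Others left out 1 array, LMEC_0h arrays 19 and 22, or LMEC_0h array 20, LSEC_0h array 15 and LSEC_2h array 6 together. These last 3 were each the highest of their group in hepatocyte markers, and no LSEC_42h array was left out with them. A fold against a group at background was taken against 6.26, as a lower bound. Promoter sequences are from RefSeq (GRCr8). Protein sequences were not used here.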

Additional observations from a re-analysis of the deposited data

Results flagged for a closer look

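In 4 of 144 groups of 4 or 5 arrays examined for the members given by array, a single array stood far from its companions, where chance gives about 1 in 20 groups. Cct2 on LSEC_2h array 7 was 9.53, below the other 3 at 9.86 to 9.88. Cct5 on LMEC_0h array 22 was 9.91, below the other 4 at 10.25 to 10.29. Hsp90b1 on LSEC_0h array 16 was 12.54, above the other 4 at 11.39 to 11.58, and without this array the organ difference of Hsp90b1 did not pass the test. Hspb8 on LSEC_2h array 6 was 6.91, above the other 3 at 6.27 to 6.36.

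The changes at 2 h and 42 h against LSEC_0h differed from each other for 55 of the 74 members, by the test of LSEC_42h against LSEC_2h. In that comparison 39.2% of the members were higher and 35.1% lower, beside 33.1% and 38.9% of all genes. The count of 55 is thus near the share found over all genes and does not set the members apart.

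The bacterial poly-A control probe sets, which enter no comparison of genes, averaged 8.06 in LSEC_2h and 7.80 in LSEC_42h, against group means of 5.67 in LMEC_0h and 5.73 in LSEC_0h.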

How the results depend on the processing

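Under the test against a 1.5-fold change, which asks for more than a difference from 0, the counts of members higher and lower were 3 and 3 for LMEC_0h against LSEC_0h, 6 and 5 for LSEC_2h against LSEC_0h, 10 and 3 for LSEC_42h against LSEC_0h, and 10 and 10 for LSEC_42h against LSEC_2h. The share of all genes that passed this stricter test is not given here, so these counts do not show whether the chaperones stood apart. Under every other alternative run, the 8 counts of the main test stayed within 1.5 times their values. With 1 array left out at a time, the members higher numbered 14 to 20, 30 to 34, 31 to 33 and 27 to 31 in the same order of comparisons, and those lower 9 to 13, 17 to 21, 15 to 19 and 24 to 27. Quantile normalization turned 8 small differences: at 2 h against 0 h Dnajb13 to -0.042, Hspbp1 to 0.048, Hspb2 to -0.040 and Hspb3 to -0.084, and at 42 h against 2 h Hspbp1 to -0.062, Pdia2 to 0.028, Hspb3 to 0.045 and Hspb9 to 0.052. The cause was not tested. Over single members, settings other than leaving out 1 array kept direction and side of the threshold in 1763 cases, lost a call in 205, gained one in 25 and turned a direction in 8; with 1 array left out these numbered 3899, 142, 27 and 0.

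No paired analysis was possible because no replicate number is shared between the groups. Signal over background limits 9 members, whose level was at or below 6.26 in 1 or more groups. The cultured groups also differ from the fresh ones in poly-A controls and in the 3′ to 5′ difference of Actb, which no setting removes; that of Gapdh was not higher in culture.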
